A study of Mus musculus with 2 samples.

Results

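The Rab, Arf and Arl genes of the mouse encode small GTPases that direct membrane traffic. They were chosen by symbol alone: Rab, Arf or Arl followed by a number, with a letter for a paralogue where there is one. This rule found 83 genes of 50608 rows, 57 Rabs, 6 Arfs and 20 Arls, and 55 of them were measured, which here means a mean of at least 1 FPKM (fragments per kilobase of gene, scaled to sequencing depth) over both libraries. The measured genes were 34 Rabs, all 6 Arfs and 15 Arls. The row Rab1 is the gene now called Rab1a.

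The cells were peritoneal macrophages, phagocytes of the abdominal cavity, from C57BL6J mice with males and females pooled. Their stage is given as E15.5, an embryonic day. There was 1 library of cells given DMSO, the solvent, and 1 library of cells treated with GW3965. GW3965 is a man-made compound that activates the liver X receptors (LXRs), nuclear receptors for oxidised cholesterol. The study asked how expression differs between them. The sources used here give neither a dose nor a treatment time.

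The assignment of the GW3965 column rests on the first letters of its name, which no other sample shares. The name ends in letters that no label explains, so every statement on GW3965 rests on that match. With 1 library per group no difference has a replicate check, and no p-value can be given.

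The depths estimated from the deposited values were 101866061 reads for DMSO and 75287120 for GW3965. The median ratio of GW3965 to DMSO over measured rows was 1.25 with nothing added to FPKM, and counting intervals are compared with it. On the scale of log2(FPKM + 1) the median difference was 0.24, a fold of 1.18, and centred values are relative to that median. Abca1, the cholesterol exporter and a known LXR target, stood at 19.9 FPKM in DMSO and at 261 FPKM in GW3965. Of the 10 macrophage markers, Lyz2 had 4053 and 4822 FPKM and Cd68 235 and 238 FPKM, and Aif1 was below 1 FPKM in both libraries. Mertk, a receptor for dying cells, was the only macrophage marker past 1.5-fold after centring, at 6.79 and 13.9 FPKM. All markers of T and NK cells, mast cells, epithelium and neurons were below 1 FPKM in both. Their sums were 0.439 FPKM in DMSO and 0.763 FPKM in GW3965 for T and NK cells, and 0.775 and 1.91 FPKM for mast cells. They were 0.259 and 0.616 FPKM for epithelium and 0.251 and 0.462 FPKM for neurons. The 6 B cell markers summed to 10.9 and 13.1 FPKM, the 6 granulocyte markers to 3.71 and 4.42 FPKM and the 5 endothelial markers to 1.97 and 2.08 FPKM, DMSO first. The 6 platelet and erythroid markers summed to 4.84 and 5.74 FPKM. The 6 dendritic cell markers summed to 116 and 107 FPKM, nearly all from Itgax, at 116 and 107 FPKM (centred log2 difference -0.36), and the others were below 1 FPKM. The 9 mesothelial and fibroblast markers summed to 16.2 FPKM in DMSO and to 24.6 FPKM in GW3965, and their part in any value below was not tested.

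Small GTPases are switches that bind membranes and effectors when loaded with GTP and let go after hydrolysis. Exchange factors load them, GTPase activating proteins switch them off, and for Rabs a GDP dissociation inhibitor carries the prenylated protein back through the cytosol. Each Rab marks certain membranes, Arfs recruit vesicle coats and lipid-modifying enzymes, and Arls serve the Golgi, lysosomes, microtubules and cilia. In macrophages these proteins govern phagosome maturation, secretion and the delivery of lipids to lysosomes.

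The Arl4 genes are shown first because Arl4c was the only measured gene of the 83 that passed the limit of 1.5-fold. The stretches below come from RefSeq (GRCm38.p6), are read 5′ to 3′ on the strand of the gene, and end before the first base of the gene in GENCODE M21. Capitals mark GGGCGG (a GC box) and AGGTCA (a nuclear receptor motif), or their reverse complements. They lie at chr1:88702222-88702441 on the minus strand for Arl4c, at chr12:40038026-40038237 on the minus strand for Arl4a and at chr11:101665291-101665540 on the plus strand for Arl4d.
Arl4c: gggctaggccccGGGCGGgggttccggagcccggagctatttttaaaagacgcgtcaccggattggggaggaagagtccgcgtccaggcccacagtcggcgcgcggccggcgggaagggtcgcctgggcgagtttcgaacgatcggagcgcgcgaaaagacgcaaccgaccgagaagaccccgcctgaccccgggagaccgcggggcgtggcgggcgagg
Arl4a: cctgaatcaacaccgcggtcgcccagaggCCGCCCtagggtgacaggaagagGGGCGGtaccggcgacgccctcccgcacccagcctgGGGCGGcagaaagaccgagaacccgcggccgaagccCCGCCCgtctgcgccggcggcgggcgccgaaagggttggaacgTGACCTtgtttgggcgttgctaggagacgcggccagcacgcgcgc
Arl4d: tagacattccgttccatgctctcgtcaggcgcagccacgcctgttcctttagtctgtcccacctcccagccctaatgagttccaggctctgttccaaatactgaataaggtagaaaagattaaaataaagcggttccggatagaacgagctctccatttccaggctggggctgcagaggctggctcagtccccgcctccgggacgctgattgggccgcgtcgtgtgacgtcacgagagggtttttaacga
The Arl4c stretch held 1 GC box in its 220 bases and the Arl4a stretch had 5 capital matches in 212 bases, of which 1 was the receptor motif. The Arl4d stretch had none in 250 bases. GC content was 70.9% for Arl4c, 72.2% for Arl4a and 54.4% for Arl4d.

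Over all promoter windows of 250 bases before to 50 after a start, searched on both strands, GGGCGG was in 74.4% of 86 windows from 69 of these genes and in 35.7% of all 32851 windows. AGGTCA was in 6.98% of the genes' windows and in 16.3% of all, and the 6 genes with it were Arl4a, Rab22a, Rab31, Rab32, Rab42 and Rab43. CACGTG, an E box, was in 11.6% of the genes' windows and in 7.15% of all. The median GC content was 63.3% in the genes' windows and 52.7% in all windows. No match of AGGTCA was found in the Arl4c window, which says only that these letters are not in that window.

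Arl4c is a membrane GTPase that recruits cytohesins and is known as an LXR target linked to cholesterol efflux. Its gene lies at chr1:88673125-88702221 (GRCm38, minus strand), with no exon base shared with another GENCODE gene. Arl4c stood at 6.62 FPKM in DMSO and at 16.1 FPKM in GW3965. The GW3965 value was thus 2.44 times the DMSO value (95% counting interval 2.34 to 2.54, from about 3611 and 6509 reads), and 0.93 above the median row as a centred log2 difference. By level it stood at rank 40 of the 55 measured genes in DMSO and at rank 25 in GW3965.

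Its relatives Arl4a and Arl4d were below the measurement limit. Arl4a stood at 0.566 FPKM in DMSO and at 1.05 FPKM in GW3965, with a ratio of 1.85 (1.64 to 2.10). Arl4d had 0.406 and 0.498 FPKM, a ratio of 1.23 (0.812 to 1.85) that holds the median ratio of all rows. Arl4c made up 87.2% of the summed FPKM of the subfamily in DMSO and 91.3% in GW3965. The subfamily held 0.651% and 1.25% of the summed FPKM of all 83 genes.

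Of the 55 measured genes, 1 was thus higher by 1.5-fold after centring (1.82%) and 0 were lower. Of all 11889 measured rows, 1.38% were higher and 0.336% were lower, so the share of the family past the limit was near that of all rows. Without centring the count was again 1 higher and 0 lower, beside 3.46% and 0.0757% of all rows. Among measured protein-coding rows 0.994% were higher and 0.254% lower after centring. These counts come from 1 library per group and carry no test.

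**Figure D1:**
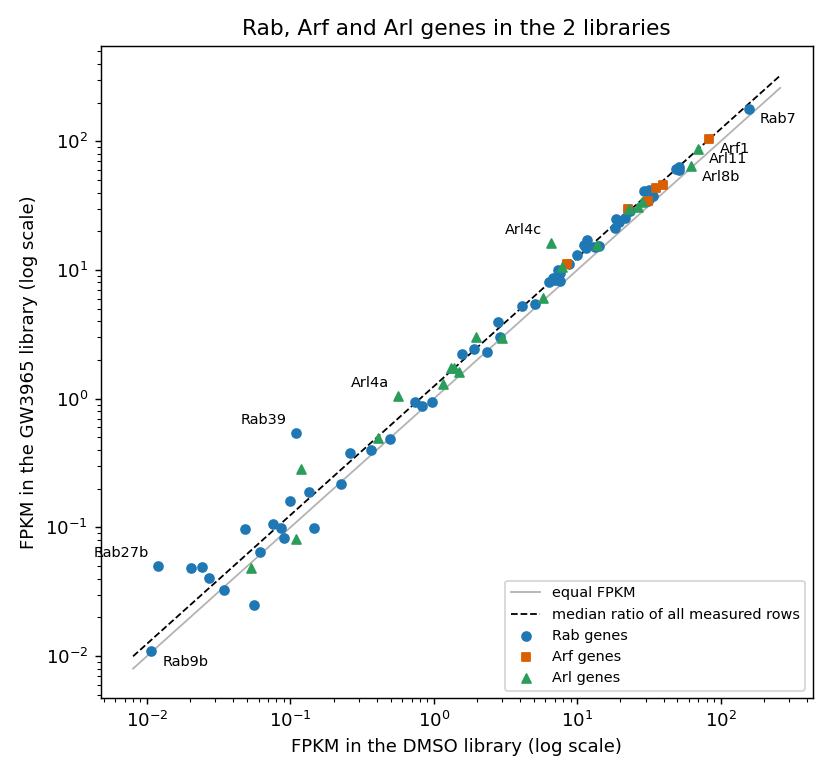
FPKM of each of the 83 genes in the DMSO library (x axis, log scale) and the GW3965 library (y axis, log scale), with 1 point per gene, for Rabs, Arfs and Arls. Most points lie along the dashed line of the median ratio, 1.25, and Arl4c lies above it at 6.62 and 16.1 FPKM.

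The measured genes of the family stood above a typical measured gene by median level, a comparison that leaves out the 28 genes below the limit. The median level of the measured genes was 11.4 FPKM in DMSO and 15.4 FPKM in GW3965, beside 4.76 and 5.76 FPKM for measured protein-coding rows. Rab7 had the highest level in both libraries and held 13.4% of the summed FPKM of the family in DMSO and 12.7% in GW3965. The 10 highest genes held 54.1% and 53.1%. Rabs held 59.3% and 59.2%, Arfs 18.9% and 19.0%, and Arls 21.8% in each library.

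As deposited, 53 of the 55 measured genes had a higher value in GW3965, and Rab19 and Arl5c had a lower one. The median ratio of all measured rows was itself 1.25, and the share of all rows with a higher value was not counted. After centring, with 1 FPKM added, 29 were above 0 and 26 below, with a median of 0.01 on the log2 scale beside 0 for all rows. The median of the family was -0.009 with 0.1 FPKM added and -0.011 with nothing added. The balance around 0 therefore depends on the amount added. All measured genes of the family except Arl4c lay within the central 90% of measured rows, between Rab19 at -0.27 and Rab6a at 0.25. The middle of the family, from the 25th to the 75th percentile, ran from -0.06 to 0.10, beside -0.10 to 0.10 for all rows. Only Arl4c, Rab43 and Rab3d differed by more than 3 ranks between the libraries.

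**Figure D2:**
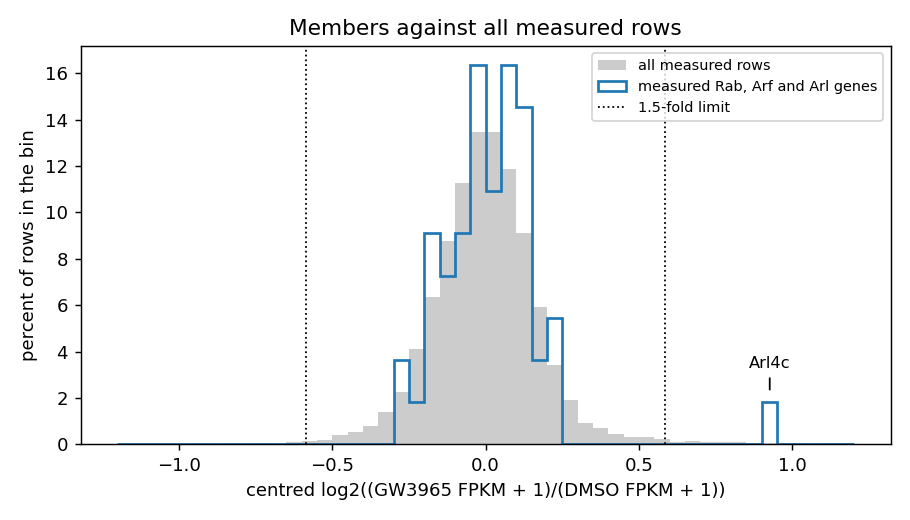
Percent of measured Rab, Arf and Arl genes (outline) and of all measured rows (grey) in bins of the centred log2 ratio (x axis), with dotted lines at 1.5-fold. The outline runs from -0.27 to 0.25 except for Arl4c at 0.93, the only measured gene of the family outside the dotted lines.

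Within that narrow range, the counting intervals of many genes did not hold the median ratio. The counting interval lay wholly above 1.25 for 12 genes and wholly below it for 23, and it held 1.25 for 20. The same count was not made over all measured rows, so these counts cannot be read as particular to the family. Spread between cultures or mice is outside what such intervals measure.

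**Figure D3:**
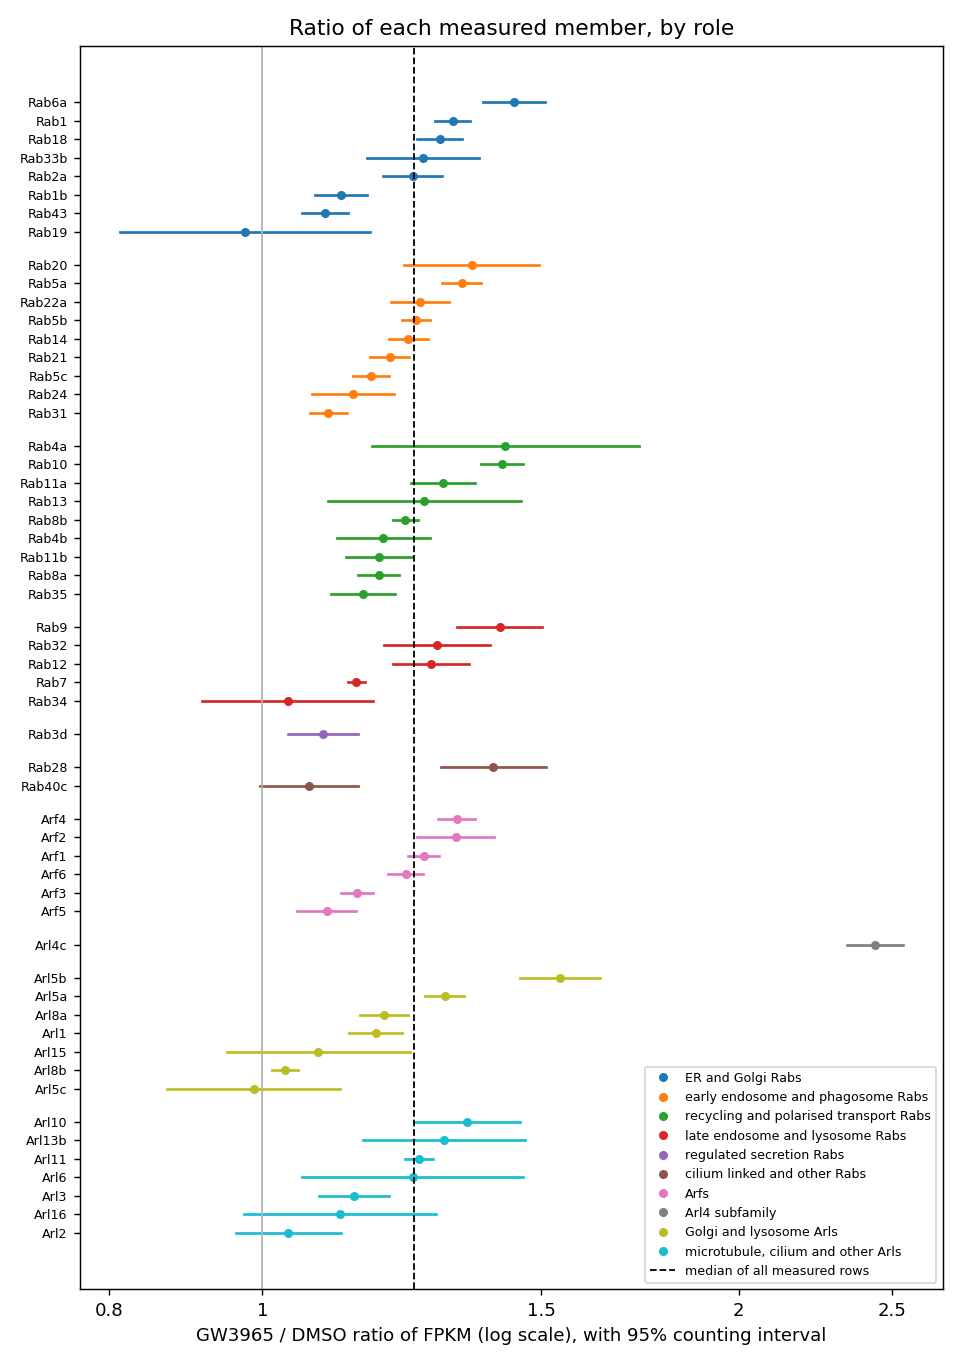
Ratio of GW3965 to DMSO FPKM (x axis, log scale) for each measured gene, by role, with 95% counting intervals as bars, a dashed line at the median of all measured rows (1.25) and a grey line at equal FPKM. Arl4c, at 2.44, stands to the right of all others, and the next is Arl5b at 1.54.

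Among the Arfs, Arf1, which recruits the COPI coat to the Golgi, was the most abundant, at 82.6 FPKM in DMSO and at 104 FPKM in GW3965. Its near copies Arf2 and Arf3 had 8.46 and 11.2 FPKM, and 39.5 and 45.4 FPKM, in the same order. Arf4 had 22.5 and 29.8 FPKM and Arf5 31.3 and 34.3 FPKM. Arf6, which acts at the plasma membrane in phagocytosis and recycling, had 35.5 and 43.7 FPKM. None of the 6 passed the limit, and the median centred log2 difference was 0.07. The ratio of Arf4 was 1.33 (1.29 to 1.36) and the ratio of Arf5 was 1.10 (1.05 to 1.15), 2 intervals that do not meet. Of the sum of Arf4 and Arf5, Arf4 held 41.8% in DMSO and 46.5% in GW3965. Exon bases shared with genes on the other strand were 17.7% for Arf4 (Arf4os and Pde12), 16.4% for Arf5 (Gcc1) and 13.6% for Arf6 (Gm9887).

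Of the 12 Rabs of the endoplasmic reticulum and Golgi, 8 were measured, 0 passed the limit and the median centred value was 0.05. Rab1 and Rab1b, which carry cargo from the endoplasmic reticulum to the Golgi, had 31.9 and 42.0 FPKM, and 33.7 and 37.8 FPKM, DMSO first. Rab1 held 48.6% of their sum in DMSO and 52.6% in GW3965, so the order of the pair differed between the libraries. Rab2a, of the same route, had 23.2 and 28.9 FPKM. Rab6a, of transport back through the Golgi, had 11.8 and 16.96 FPKM. Its ratio was 1.44 (1.38 to 1.51), and its centred value of 0.25, with 1 FPKM added, was the highest after Arl4c. By ratio, with nothing added, Arl5b came after Arl4c, at 1.54. Its exons share 19.0% of their bases with Mrpl48 on the other strand.

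Rab18, of the endoplasmic reticulum and lipid droplets, had 10.04 and 12.99 FPKM. Rab33b, of the Golgi and autophagy, had 4.15 and 5.24 FPKM, and its exons share 18.7% of their bases with Gm38160 on the other strand. Rab43 had 14.1 and 15.4 FPKM, and 75.4% of its exon bases are shared with the protein-coding model Gm45140 on the same strand, so its value is uncertain. Rab19 was the lowest measured gene of the family after centring, with 2.35 and 2.29 FPKM and a ratio of 0.975 (0.812 to 1.17).

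Early endosome and phagosome Rabs were measured in 9 of 10 cases, and 0 passed the limit, with a median centred value of 0.03. Rab5a, Rab5b and Rab5c drive fusion of early endosomes and phagosomes. They had 18.7 and 25.0 FPKM, 49.0 and 61.2 FPKM, and 51.5 and 60.3 FPKM. Rab5a had a ratio of 1.34 (1.30 to 1.38) and Rab5c one of 1.17 (1.14 to 1.203). Rab5c had the highest value of the 3 in DMSO and Rab5b in GW3965. In GW3965 these values were close, and no counting interval was computed between genes.

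Rab20, a Rab of phagosome maturation, had 7.35 and 9.97 FPKM, a ratio of 1.36 (1.23 to 1.496). Its exons share 25.6% of their bases with E230013L22Rik on the other strand. Rab14 had 7.61 and 9.42 FPKM, Rab21 19.6 and 23.5 FPKM and Rab22a 6.37 and 8.02 FPKM. Rab31 had 31.1 and 34.2 FPKM, with a ratio of 1.10 (1.07 to 1.13). Rab24, linked to autophagy, had 13.2 and 15.1 FPKM, and 62.4% of its exon bases are shared with Prelid1 on the other strand. Without the strand setting, reads of such pairs cannot be told apart.

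Late endosome and lysosome Rabs were mostly below the limit, with 5 of 11 measured, 0 called and a median centred value of 0.08. Rab7, which ties late endosomes and phagosomes to lysosomes, had 157 and 180 FPKM, and its ratio of 1.15 (1.13 to 1.16) was below the median row. Rab9, of transport from late endosomes to the trans-Golgi, had 11.1 and 15.7 FPKM, a ratio of 1.41 (1.33 to 1.502). The intervals of Rab7 and Rab9 lie on opposite sides of the median ratio. Rab32 had 6.77 and 8.72 FPKM and Rab12 8.76 and 11.2 FPKM. Rab34, linked to lysosome position and cilia, had 2.90 and 3.01 FPKM, a ratio of 1.04 (0.915 to 1.17).

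Of the 11 Rabs of recycling and polarised transport, 9 were measured and 0 passed the limit, with a median centred value of -0.01. Rab10, which carries cargo to the plasma membrane, had 29.1 and 41.2 FPKM, a ratio of 1.42 (1.37 to 1.46). Rab8a and Rab8b, which act in transport to the cell surface, had 21.5 and 25.4 FPKM, and 51.0 and 62.8 FPKM. Rab11a and Rab11b, of the recycling endosome, had 11.4 and 14.9 FPKM, and 7.05 and 8.36 FPKM. Rab35 had 18.3 and 21.2 FPKM and Rab13, known from tight junctions, 1.91 and 2.41 FPKM. Rab4a and Rab4b, of fast recycling, had 1.56 and 2.22 FPKM, and 7.23 and 8.62 FPKM. Rab4b shares 65.0% of its exon bases, mainly with Gm21983 on the same strand, so the division of reads between them is uncertain.

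Rabs of regulated secretion were mostly below the limit, with 1 of 9 measured. This was Rab3d, of secretory granules, at 7.55 and 8.24 FPKM, and it held 89.7% of the summed Rab3 level in DMSO and 89.5% in GW3965. Of 4 Rabs linked to cilia or outside these groups, Rab28 had 2.81 and 3.93 FPKM and Rab40c, part of a ubiquitin ligase, had 5.11 and 5.47 FPKM. The ratio of Rab40c was 1.07 (0.997 to 1.15).

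All 7 Arls of the Golgi and lysosome were measured and 0 passed the limit, with a median centred value of -0.01. Arl8a and Arl8b link lysosomes to kinesins. Arl8a had 28.4 and 33.9 FPKM, and Arl8b had 61.7 and 63.8 FPKM, a ratio of 1.03 (1.014 to 1.05). Arl8b therefore held 68.5% of the pair in DMSO and 65.3% in GW3965. Arl1, which recruits golgins, had 26.4 and 31.1 FPKM.

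Arl5a and Arl5b, of the trans-Golgi, had 22.8 and 29.7 FPKM, and 1.97 and 3.04 FPKM. Their relative Arl5c had 2.98 and 2.94 FPKM. The ratio was 1.54 (1.45 to 1.63) for Arl5b and 0.987 (0.870 to 1.12) for Arl5c, the widest gap within a set of measured paralogues listed here. Arl5a made up 82.2% of the 3 in DMSO and 83.2% in GW3965. Arl15 had 1.498 and 1.63 FPKM, a ratio of 1.08 (0.949 to 1.24).

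Among 10 Arls of microtubules, cilia and other roles, 7 were measured and 0 passed the limit, with a median centred value of -0.05. Arl11, a regulator of macrophage activation, had 69.8 and 87.6 FPKM and came after Rab7 and Arf1 in level in both libraries. Arl3, which releases lipid-modified cargo in cilia, had 13.7 and 15.6 FPKM. Arl2, of tubulin folding, had 5.81 and 6.04 FPKM, a ratio of 1.04 (0.962 to 1.12). Arl10 had 7.89 and 10.6 FPKM. The ciliary Arl6 and Arl13b had 1.39 and 1.73 FPKM, and 1.32 and 1.72 FPKM. Arl16 had 1.16 and 1.29 FPKM, with a ratio of 1.12 (0.974 to 1.29), and was the lowest gene above the limit.

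**Figure D4:**
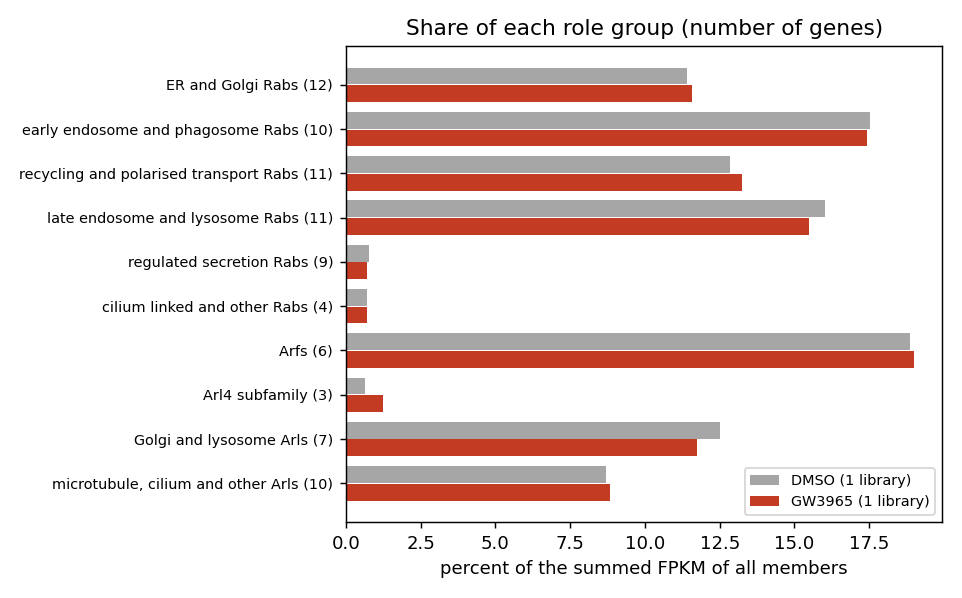
Percent of the summed FPKM of all 83 genes (x axis) held by each role group in the DMSO library (grey bars) and the GW3965 library (red bars), with the number of genes in brackets. The Arl4 bars, at 0.651% and 1.25%, are short beside those of the Arfs, at 18.9% and 19.0%.

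The other 28 genes had mean levels from 0.0108 FPKM (Rab9b) to 0.954 FPKM (Rab6b), 14 of them under 0.1 FPKM. The highest 5 were Rab6b, Rab3a, Rab2b, Arl4a and Rab15. Rab6b had 0.969 and 0.938 FPKM, Rab3a 0.821 and 0.876 FPKM, Rab2b 0.744 and 0.943 FPKM and Rab15 0.498 and 0.486 FPKM. Low levels can come from few cells or from little RNA per cell, which bulk RNA cannot tell apart.

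Rab39, a Rab of phagosomes and lysosomes, was picked out of this set after its values were seen. It stood at 0.109 FPKM in DMSO and at 0.542 FPKM in GW3965, from about 30 and 110 reads, with a ratio of 4.96 (3.29 to 7.70). Of 3739 protein-coding rows with a mean of 0.1 to 1 FPKM, 98.02% had a lower ratio, and the central 90% ran from 0.857 to 2.84. Its mean of 0.326 FPKM was below the limit of 1 FPKM, so Rab39 could not be called. Its exons share no base with another gene.

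The regulators and partners of these GTPases were set against the same limit. Of all measured rows, 1.38% were higher and 0.336% lower after centring, so lists of this size can be expected to hold few calls or none. After centring, 0 of 8 measured prenylation and recycling chaperones, 0 of 42 Rab exchange factors, 0 of 32 Rab GTPase activating proteins and 0 of 36 Rab effectors were called in either direction. Their median centred values were 0.03, -0.05, -0.03 and -0.05. Gdi2, a GDP dissociation inhibitor that recycles Rabs, had 83.8 FPKM in DMSO against 120.5 FPKM in GW3965, a centred log2 difference of 0.28. Rabac1 had 60.7 and 64.5 FPKM (-0.16) and Chml, a Rab escort protein, 1.89 and 2.76 FPKM (0.14). The exchange factor Rab3il1 had 4.49 and 3.93 FPKM (-0.40), Als2cl 1.59 and 1.41 FPKM (-0.35) and Trappc6a 3.35 and 3.25 FPKM (-0.28).

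The largest differences among Rab GTPase activating proteins were those of Tbc1d16 at -0.28, Tbc1d20 at -0.27 and Tbc1d17 at -0.23 on the centred log2 scale. Among Rab effectors they were those of Optn at -0.28, Rilp, which couples Rab7 to dynein, at -0.28, and Mical1 at -0.25. All 6 lay below the median row.

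For Arfs and Arls, 0 of 10 measured exchange factors, 0 of 21 GTPase activating proteins and 0 of 44 effectors were called after centring. The share of all measured rows was 1.38% higher and 0.336% lower after centring, and 3.46% higher without. The medians of the 3 lists were -0.03, -0.09 and -0.05. Without centring, Adap2, an Arf6 GTPase activating protein, was the only 1 called, at 10.3 and 16.9 FPKM and a centred log2 difference of 0.41. Smap2 had 7.66 and 6.58 FPKM (-0.44) and Git1 6.97 and 6.07 FPKM (-0.42). Among exchange factors, Iqsec1 had 21.6 and 20.8 FPKM (-0.30), Arfgef1 9.78 and 12.98 FPKM (0.13) and Cyth4, a cytohesin, 55.4 and 69.9 FPKM (0.08). Among effectors, Pip5k1c had 30.2 and 25.6 FPKM (-0.47), Col4a3bp, the ceramide transfer protein, 18.4 and 26.8 FPKM (0.28), and Plekhm2, which joins Arl8 to kinesin, 26.0 and 25.6 FPKM (-0.27).

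Other small GTPases were set beside the family for comparison, where 1.38% of all measured rows were called higher and 0.336% lower. Of 15 measured Ras family genes, 0 were called, with a median centred value of 0.04. Rap2c had 9.07 and 13.4 FPKM (0.27), Rras2 2.42 and 3.90 FPKM (0.27) and Rap2b 19.2 and 25.5 FPKM (0.15). Of 9 measured related genes outside the symbol rule, 0 were called. Ran had 12.9 and 18.4 FPKM (0.23), Ift27 3.26 and 3.30 FPKM (-0.23) and Sar1b, of the COPII coat, 13.4 and 17.7 FPKM (0.14).

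Across the 55 measured genes the centred log2 difference had a Spearman correlation of 0.18 with mean FPKM, and across measured protein-coding rows it was 0.21. These correlations are across genes of the same 2 libraries and are given as a description. Level and difference come from the same values, so they are not independent. With a median ratio above 1, adding 1 FPKM also gives low genes a lower centred value at the same ratio. Arl13b and Arl5a both had a ratio of 1.30, at mean levels of 1.52 and 26.3 FPKM. Their centred values were -0.01 and 0.12. The scale thus builds in a rise with level, and the correlations cannot be read as a trend of the genes.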

How the data were processed

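The authors deposited 1 table of FPKM values for the 2 libraries. STAR 2.3.0, HTSeq 0.5.4p3 and, as genome build, GRCm38 (mm10) are named, without their roles, in the submitters' processing notes. The sources used here do not give the gene annotation, the strand setting or the handling of multiply mapped reads. Libraries were prepared with the TruSeq RNA kit of Illumina from total RNA purified with a Qiagen kit, per the labels' protocols.

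For each row log2((GW3965 FPKM + 1)/(DMSO FPKM + 1)) was used. With 1 FPKM added, differences of low genes come out too small. Values were centred on the median of the 11889 rows with a mean of at least 1 FPKM, and 1.5-fold was the limit. FPKM steps gave the ratio of depths, 1.35: of 29845 rows below 0.3 FPKM, 83.7% then gave whole reads, against 0.0101% with the factor moved by 1%. Whole-number gene lengths gave the depths, searched within a range set beforehand. At the depth found, 55.1% of 7109 rows gave whole lengths, against 1.66% with it moved by 0.1%. A 2-fold lower depth gave 66.3%, so whole lengths alone do not fix the depth. The length nearest to that of GENCODE M21 (GRCm38), less 99 bases, gave each gene's reads, which are estimates. The length used was close to this for Arl4c, at 5357 against 5393 bases. It was far from it for some genes, such as Arf6 (3493 against 1435) and Rab7 (3422 against 2511). Reads grow with the length used, so the intervals of such genes may be too narrow. Values were taken as whole within 0.002 reads plus allowances that grow with the length and the reads of the gene. Intervals are exact conditional (Clopper-Pearson) 95% intervals and cover counting error only. On simulated data the steps were tested with each gene's true length given and with true depths inside the searched range. How well they do with an annotated length was therefore not tested. RefSeq promoter windows matched 69 of the 83 genes.

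Every measured gene is named, with a ratio and interval at least for the 8 highest and 8 lowest centred values and those past the limit. Genes, lists, roles and this rule were chosen with earlier results of these data known, and entries without a row were left out. A comparison list is not reported here. Alternatives were pseudocounts of 0.1 and 0.5, no filter, a mean of at least 5 FPKM, no centring, scaling to the same upper quartile or sum, centring on protein-coding rows, a 2-fold limit and the counting interval as limit. Software was scipy 1.17.1, matplotlib 3.10.9, pandas 2.3.3 and numpy 2.4.6 under Python 3.11.15.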

Additional observations from a re-analysis of the deposited data

How the results depend on the processing

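The count of 1 gene higher and 0 lower was the same with pseudocounts of 0.1 and 0.5, without a filter, at a mean of at least 5 FPKM, as deposited, with the same upper quartile, with centring on protein-coding rows and with the counting interval as limit. Scaling both libraries to the same sum of FPKM gave 17 higher genes, and a limit of 2-fold gave 0. The share of all measured rows was not counted under either setting, so neither count can be read as particular to the family. The log2 ratio of Arl4c is 0.93 after centring and 1.17 without, and with nothing added to FPKM it is 0.97 after centring. No gene was lower under any of these settings. The median log2 ratio of the measured genes, 0.01, was 0.12 over all 83 genes without a filter, 0.26 as deposited and 0.51 with the same sum of FPKM. These 3 shifts come from the rows included or the scaling itself. The same median was slightly below 0 with a pseudocount of 0.1, at -0.009, and with nothing added, at -0.011. Of 154 values of 16 named genes under the alternatives, 146 stayed on their side of the limit, 7 passed it with the same sum of FPKM and 1, that of Arl4c at 2-fold, no longer did. No value past the limit changed sign, but 16 values within it did, all from below to above 0: 8 with the same sum of FPKM, 6 as deposited and 2 without a filter. With the fewest whole reads per gene, an alternative chosen after the data were seen, 10 intervals lay above the median ratio, 20 below and 25 held it. These too were not counted over all measured rows. No paired analysis was possible because there is only 1 library per group. Depth limits genes below 1 FPKM, such as Rab39 with about 30 and 110 reads.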
